A study of Mus musculus with 6 samples.

Results

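A set of 10 genes for synaptic vesicle proteins and synaptotagmins was followed in the hippocampus of WT and Prmt9 KO mice, out of 36008 genes in the deposited gene table. The 10 genes were chosen by symbol: the synapsins Syn1, Syn2 and Syn3, the vesicle membrane proteins Syp, Sv2a and Sv2b, and the synaptotagmins Syt1, Syt2, Syt4 and Syt7. Poly(A) RNA from the hippocampus of 2-week-old female B6J mice was sequenced as stranded libraries, with 3 WT mice and 3 Prmt9 KO mice, each library from 1 mouse. The KO mice lacked exon 5 of Prmt9 throughout the body, after CMV-Cre removed the floxed exon in the germ line, and the WT mice were their same-sex littermates. PRMT9 is an arginine methyltransferase that modifies a splicing factor of the U2 snRNP, and the comparison asked which transcripts and splicing choices differ without it. The tissue was bulk hippocampus, so fewer cells of a type and less RNA per cell cannot be told apart.

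Synaptic vesicles store neurotransmitter at the presynaptic terminal. Synapsins coat the cytosolic face of the vesicle and tether the reserve pool, synaptophysin and the SV2 proteins span its membrane, and synaptotagmins carry paired C2 domains that bind phospholipid, in most members in response to calcium. Syt1 and Syt2 are the fast calcium sensors of release, Syt7 is a sensor of higher calcium affinity that acts in asynchronous release and facilitation, and Syt4 is an unusual member whose first C2 domain does not bind calcium in the usual way. Several of these genes are known for alternative splicing, in particular Syn1, Syn2 and the linker of Syt7 between its transmembrane segment and its C2 domains.

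Sequences of the alternative segments and start sites that the isoform results turn on are shown first. They were read from the GENCODE M21 transcripts of GRCm38, 5′ to 3′ on the strand of the gene. In Syn1, the 2 annotated transcripts differ in the length of their first exon and at the acceptor of their last exon, on the minus strand, and the first 70 bases of the longer form, chrX:20861540-20861609, are given with the 38 bases used only by Syn1-201 in capitals. In Syt1, the exon at chr10:108636634-108636673 on the minus strand is shown by its first 40 bases, with the 9 bases that Syt1-206 leaves out in capitals.
Syn1 exon start: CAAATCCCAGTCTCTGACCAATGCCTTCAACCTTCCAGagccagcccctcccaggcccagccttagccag
Syt1 exon start: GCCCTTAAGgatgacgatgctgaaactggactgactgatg

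Syt7 on the plus strand of chromosome 19 has a run of alternative linker exons, here called A to E in genomic order. Exon A, at chr19:10421757-10421888, has 132 bases. Exon B starts at chr19:10422395 and has 123 bases. Its first 40 bases, chr19:10422395-10422434, are shown, with the annotated stop codon TAA at bases 20 to 22 of the exon in capitals, and the transcripts that hold it are annotated as targets of nonsense-mediated decay. Exon C, at chr19:10422785-10423012, has 228 bases and a GC content of 73.2%, against 46.97% in exon A.
Syt7 exon A: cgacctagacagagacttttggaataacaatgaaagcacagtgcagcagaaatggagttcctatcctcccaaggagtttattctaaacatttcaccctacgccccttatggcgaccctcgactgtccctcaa
Syt7 exon B, first bases: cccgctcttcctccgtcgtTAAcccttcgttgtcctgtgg
Syt7 exon C: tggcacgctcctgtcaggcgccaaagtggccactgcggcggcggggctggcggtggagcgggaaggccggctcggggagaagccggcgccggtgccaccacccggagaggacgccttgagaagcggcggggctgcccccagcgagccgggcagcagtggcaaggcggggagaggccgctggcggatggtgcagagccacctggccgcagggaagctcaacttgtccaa

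Syn2 and Syt2 each have a pair of annotated start sites whose transcripts took large parts of the gene's TPM, so the 120 bases before each start are shown from the RefSeq promoter table (GRCm38.p6), on the plus strand, with each GGGCGG or its reverse complement CCGCCC in capitals. The windows are chr6:115134782-115134901 before the start of the full-length Syn2 transcripts, chr6:115238874-115238993 before the internal start of Syn2-206, chr1:134646492-134646611 upstream of Syt2-203 and chr1:134709180-134709299 before Syt2-201. In the whole 300-base entries, the motif was found 3 times at the first Syn2 start and 0 times at the internal start, with 21 and 5 CG pairs. It was found 4 times at the Syt2-203 start and 2 times at the Syt2-201 start, with 34 and 28 CG pairs. Of all 32851 promoters in the table, 35.7% hold the motif and the median number of CG pairs is 7. The table had entries for 7 of the 10 genes, and 7 of their 13 promoters hold the motif.
Syn2, full-length start: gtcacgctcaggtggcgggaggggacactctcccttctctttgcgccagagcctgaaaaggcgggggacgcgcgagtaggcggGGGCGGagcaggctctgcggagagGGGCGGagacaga
Syn2, internal start: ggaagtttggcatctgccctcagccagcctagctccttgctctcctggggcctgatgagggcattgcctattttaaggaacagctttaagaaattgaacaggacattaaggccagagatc
Syt2, upstream start: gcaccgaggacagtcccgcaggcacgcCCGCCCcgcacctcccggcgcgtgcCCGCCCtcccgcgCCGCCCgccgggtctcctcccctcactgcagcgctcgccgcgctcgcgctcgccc
Syt2, downstream start: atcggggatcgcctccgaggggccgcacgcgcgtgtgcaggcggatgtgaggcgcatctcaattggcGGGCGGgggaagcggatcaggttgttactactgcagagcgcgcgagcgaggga

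The libraries held 194098391 to 286771677 estimated counts. Prmt9 was 11.8, 15.2 and 15.0 TPM (a transcript abundance scaled to library size and transcript length) in the 3 WT mice and 3.93, 4.61 and 4.67 TPM in the 3 KO mice, and its log2 fold change was -1.71 (SE 0.0987, adjusted p = 0.0327, edgeR quasi-likelihood test with Benjamini-Hochberg adjustment). The mouse numbered 1 of each genotype stood apart: the first principal component held 67.4% of the variance, with scores of -110 for WT1 and -30.5 for KO1 against 31.3 to 37.6 for the other 4 mice. WT1 also differed from all 5 other mice, KO1 included: 37.4% of its transcripts were at 0, against 22.8% to 24.8%, and its summed TPM of 5 choroid plexus markers was 7267, against 609 to 3339. In the same pair of mice the summed TPM of 9 markers of the oligodendrocyte lineage was 2232 and 1238, against 7639 to 10969 in the others, and that of 4 markers of immature neurons was 92.1 and 90.4, against 55.7 to 62.1. Markers of excitatory hippocampal neurons summed to 1783 to 3082 TPM in WT and 1888 to 3033 TPM in KO mice. This list split the mice in the same way: 1783 TPM in WT1 and 1888 in KO1, against 2901 to 3082 in the other 4. All 7 of its markers, like every gene of the other marker lists, were above 0 in at least 1 mouse. Results are therefore also given without the mice numbered 1.

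All 10 genes were expressed and passed the filter on low counts, and none was called different between the genotypes by the test. The rule for a call, an adjusted p below 0.01 and a change above 1.5-fold, called 0 of 20315 genes by edgeR. It did not call Prmt9 either (adjusted p = 0.0327, edgeR), so the lack of a call does not show that a gene was unchanged. Syp, which encodes synaptophysin, one of the most abundant vesicle membrane proteins, had the highest TPM: 827, 1146 and 1121 in WT mice and 964, 1107 and 1063 in KO mice. It ranked 85th among the 15200 genes with a mean of at least 1 TPM. Next came Syt1 with a mean of 469 TPM ± 147 (SD, n = 3) in WT and 491 ± 66.4 in KO, and the lowest were Syn3 with 13.6 ± 3.98 and 13.5 ± 1.43 and Syt2 with 13.1 ± 4.76 and 11.7 ± 3.98. The order by mean was the same in both genotypes: Syp, Syt1, Syn2, Syn1, Sv2a, Syt7, Sv2b, Syt4, Syn3, Syt2. In WT mice the ranges of Syt1 and Syn2, Syn2 and Syn1, Sv2a and Syt7, Syt7 and Sv2b, and Syn3 and Syt2 overlapped. Among KO mice the overlapping neighbours were Sv2a and Syt7, Syt7 and Sv2b, and Syn3 and Syt2. Within single mice, Syt1 was above Syn2 and Syn2 above Syn1 in all 3 WT mice. Sv2a was above Syt7 in 3 WT mice but in only 1 KO mouse.

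**Figure D1:**
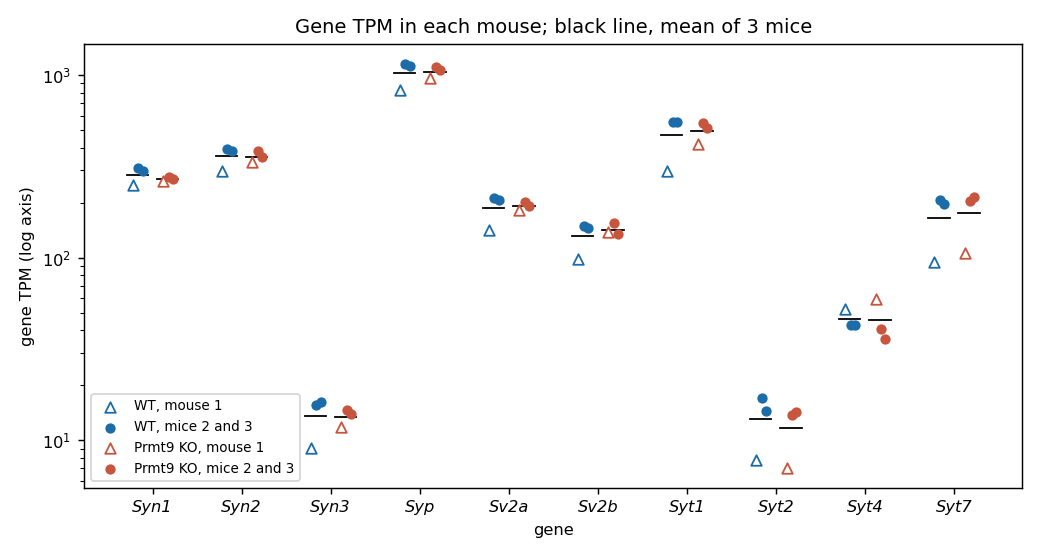
Gene TPM of the 10 genes in each of the 6 mice, on a log axis, with WT in blue and Prmt9 KO in red. Open triangles are the mice numbered 1, filled circles the mice numbered 2 and 3, and black lines the means of 3 mice. WT and KO mice overlap for each gene. The triangles lie apart from the circles most clearly for Syt2 and Syt7, and those of Syt4 lie above its circles in each genotype.

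The synapsins were close in both genotypes. Syn1 (chrX:20860511-20921004, minus strand) was 249.8, 309 and 296 TPM in WT mice and 262, 275 and 271 TPM in KO mice. The KO values lay inside the WT range in TPM, but in TMM-normalized counts, which the fit uses, they did not overlap: 534, 512 and 488 CPM (normalized counts scaled to library size) in WT and 478, 457 and 442 in KO mice, lower in KO in each numbered pair. Syn1 was the 1 gene of the 10 without overlap on this scale, against 7.01% of all genes. Its log2 fold change was -0.16 (SE 0.0961, 95% interval -0.39 to 0.08, unadjusted p = 0.155, adjusted p = 1.0, edgeR). With the replicate number as a block the unadjusted p was 0.0344 (adjusted p = 0.79), where 5.75% of all genes had one below 0.05, and with a term for the mice numbered 1 it was 0.017 (adjusted p = 0.46), where 9.74% did. Syn2 (chr6:115134902-115282006, plus strand) was 297, 393 and 384 TPM in WT and 333, 385 and 356 TPM in KO mice, again with the KO values inside the WT range. Syn3 (chr10:86055125-86498896, minus strand), the least abundant synapsin in these libraries, was 9.04, 15.6 and 16.2 TPM in WT and 11.8, 14.6 and 13.9 TPM in KO mice. The 3 synapsins summed to 657 TPM ± 87.9 in WT and 640 ± 33.7 in KO mice (n = 3, exact two-sided permutation p = 0.8, where 0.1 is the smallest p that 3 against 3 allows). Syn2 made up 54.4% ± 0.882 of that sum in WT and 55.8% ± 1.14 in KO, and Syn1 43.5% ± 1.25 and 42.1% ± 1.23. The genotypes overlapped in both shares (exact two-sided permutation p = 0.2 for Syn2 and 0.3 for Syn1).

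The annotation places a Timp gene, which encodes an inhibitor of metalloproteinases, inside each synapsin gene on the opposite strand: Timp1 in Syn1, Timp4 in Syn2 and Timp3 in Syn3. Whether the quantification used the strand of the libraries is not given in the sources used here. Reads could therefore be shared between the partners where their exons overlap. Only the start and end of each gene were compared, and overlap of exons was not checked. The other members with an annotated gene on the opposite strand were Syp, Sv2b, Syt1, Syt2, Syt4 and Syt7, and Sv2a had no overlapping gene. On the same strand, Mir5617 overlapped Syn1, Gm17482 overlapped Syn2, Gm5136 and Gm47477 overlapped Syt1, and AC124169.1 overlapped Syt7.

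The membrane proteins SV2A, the target of the antiepileptic drug levetiracetam, and SV2B, a related transporter-like glycoprotein, were also level between the genotypes. Sv2a (chr3:96181151-96195521, plus strand) was 142, 212 and 208 TPM in WT mice and 183, 201 and 191 TPM in KO mice. Sv2b (chr7:75114894-75309262, minus strand) was 98.3, 149 and 144 TPM in WT and 139, 155 and 134 TPM in KO mice. Sv2b had the highest log2 fold change of the 10 genes, 0.07 (SE 0.118, 95% interval -0.22 to 0.35). Sv2a made up 58.7% to 59.1% of the summed TPM of both genes in WT mice and 56.5% to 58.8% in KO mice, ranges that overlap by a narrow margin (exact two-sided permutation p = 0.2).

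Among the synaptotagmins the spread between mice was wider than any difference between genotypes. Syt1 (chr10:108497650-109010982, minus strand) was 299, 552 and 555 TPM in WT and 418, 547 and 510 TPM in KO mice, with the mouse numbered 1 lowest in each genotype. For Syt7 (chr19:10389090-10453180, plus strand) the values were 94.3, 206 and 196 TPM in WT and 107, 204 and 215 TPM in KO mice, and those of Syt2 (chr1:134646677-134762593, plus strand) were 7.82, 17.1 and 14.4 TPM and 7.08, 13.7 and 14.2 TPM. In both genes the mouse numbered 1 had about as little in one genotype as in the other. Syt4 went the other way: it was 52.1, 42.9 and 42.7 TPM in WT and 59.7, 40.6 and 35.7 TPM in KO mice, highest in the mouse numbered 1 of each genotype. The log2 fold changes of Syt2 and Syt4 had the widest intervals, -0.83 to 0.62 and -0.82 to 0.61, so a difference of 1.5-fold in either direction lay within them. The interval of Syt7, -0.54 to 0.59, reached a 1.5-fold higher level in KO, while those of the other 7 genes stayed inside -0.43 and 0.39.

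Over all 10 genes the log2 fold changes ran from -0.16 in Syn1 to 0.07 in Sv2b, with 3 above 0 and 7 below 0 and a median of -0.05, beside a median of -0.01 over all 20315 genes tested. Genes past both limits (a change of over 1.5-fold with an adjusted p under 0.01) numbered 0 of 10 by edgeR, where 0% of all genes tested were called. At an unadjusted p below 0.05 there were 0 of 10, against 1.24% of all genes, and DESeq2 called 0 of the 10 genes. WT and KO mice overlapped in TPM in all 10 genes, while 6.67% of all genes did not overlap.

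**Figure D2:**
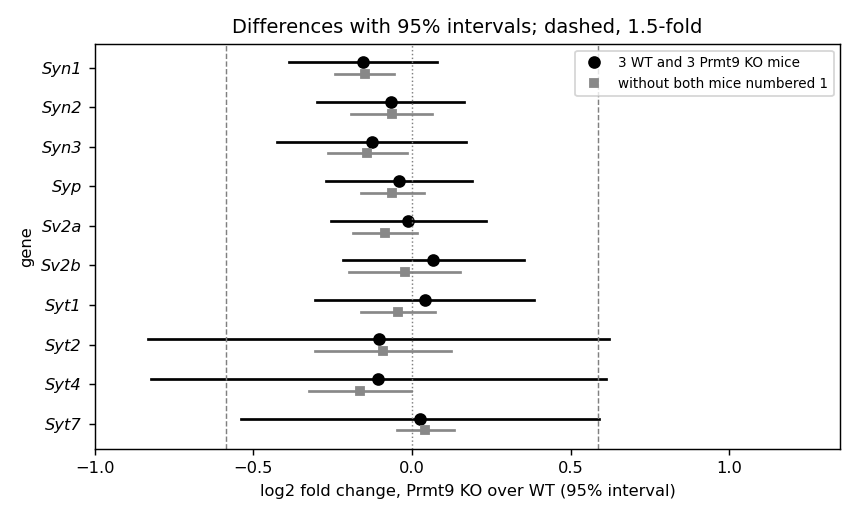
Log2 fold change of Prmt9 KO over WT for the 10 genes with 95% intervals, from edgeR. Black circles use all 6 mice, grey squares leave out both mice numbered 1, and dashed lines mark a 1.5-fold change. All black intervals include 0, and those of Syn1, Syn3 and Syt4 lie below 0 without the mice numbered 1.

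Intervals were narrower without the mice numbered 1, which left 2 mice per genotype. Syn1 was then at 90.1% of the WT mean in KO mice (log2 fold change -0.15, SE 0.0381, unadjusted p = 0.00775, adjusted p = 0.174, edgeR), Syn3 at 89.6% (-0.14, SE 0.0508, adjusted p = 0.26) and Syt4 at 89.1% (-0.16, SE 0.0659, adjusted p = 0.299). These 3 of 10 genes had an unadjusted p below 0.05, beside 16.4% of all genes in the same fit, and 0 were called. In TPM, 7 of the 10 genes did not overlap between the remaining mice, against 48.3% of all genes, counted in either direction. All 7 (Syn1, Syn3, Syp, Sv2a, Syt1, Syt2 and Syt4) were lower in KO, but the share of all genes apart in that direction was not computed. This set of mice was chosen after seeing the data. Leaving out WT mouse 1 alone gave 6 of 10, Syt4 no longer among them, against 32% of all genes.

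The largest differences among these mice were between the mice numbered 1 and their genotype mates, and the scale mattered for how many genes shared them. In TPM, 9 of the 10 genes were lower and Syt4 was higher in the mouse numbered 1 of each genotype, but the median of all 15120 expressed genes tested was itself at 78.3% of the other 2 mice in WT and 91.9% in KO. In counts normalized by TMM (trimmed mean of M values), where these medians were 102% and 103%, 5 of the 10 genes set both mice numbered 1 apart from all 4 others. Syt2 in the mouse numbered 1 was at 59.5% of its WT mates and 57.9% of its KO mates, Syt7 at 67.7% and 65.5%, Syt1 at 76.0% and 93.5%, and Syn3 at 84.5% and 88.3%. Syt4 was at 157% and 173%. For comparison, both mice numbered 1 lay below all 4 others in 32.3% of all expressed genes and above them in 38.7%. Syn1, Syn2, Syp, Sv2a and Sv2b lay between 87.5% and 107% of their mates in both genotypes. The part that oligodendrocyte, immature neuron or excitatory neuron content plays in these values was not tested.

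**Figure D3:**
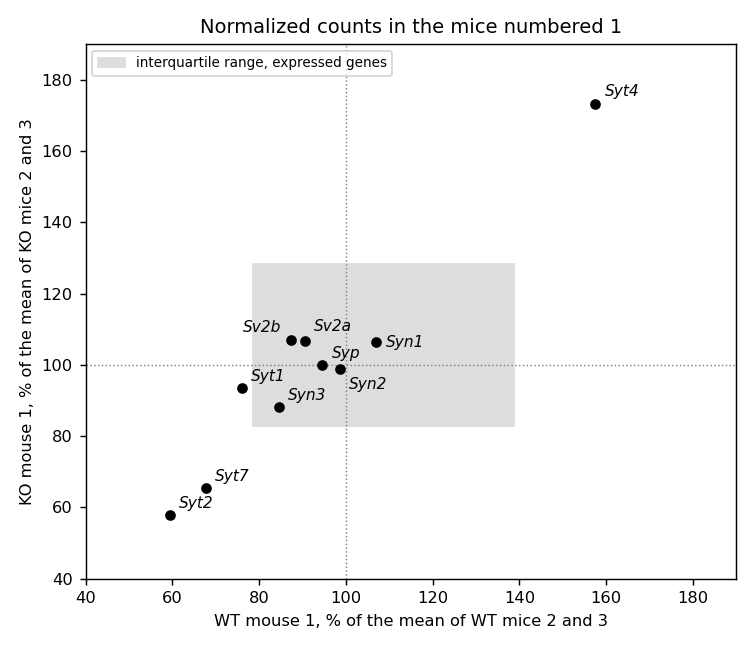
Normalized counts in the mouse numbered 1 as a percent of the mean of the other 2 mice, for WT on the x axis and KO on the y axis, with 1 point per gene. The grey box spans the interquartile range of 15120 expressed genes in each genotype, and dotted lines mark 100%. Syt2 and Syt7 lie between 57.9% and 67.7% on both axes and Syt4 at 157% and 173%.

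As a description over the 6 mice, which share this split, Syt4 and Syt7 had a Pearson r of -0.98 in log2 normalized counts and Syt2 and Syt4 one of -0.92. The gene outside the list most like each member by this measure was Slc8a2 for Syn1 (r = 0.993), Lrp11 for Syn2 (0.968), Gm28155 for Syn3 (0.994), Rnf227 for Syp (0.991), Cnr1 for Sv2a (0.996), Rfc1 for Sv2b (0.99), Parm1 for Syt1 (0.998), Fubp3 for Syt2 (0.998), Tubb4b for Syt4 (1.0) and Pik3c2a for Syt7 (0.999). Over these 6 mice such values were common for some members and less so for others. With Syt2, Syt4 or Syt7, 1233 to 1688 of 15110 genes had an r above 0.95, against 6 to 590 for the other 7 genes.

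The files held 57 transcripts of the 10 genes, from 1 for Syt4 to 15 for Syt7, and 51 passed the filter on low counts. Of these, 0 were called by edgeR or by DESeq2 (0% of 75661 transcripts by edgeR). At an unadjusted p below 0.05 edgeR gave 1 of 51, against 1.61% of all transcripts. It was Syn2-202, a minor coding transcript, at 2.31, 3.52 and 3.73 TPM in WT and 1.45, 1.29 and 2.59 TPM in KO mice (log2 fold change -0.90, SE 0.279, adjusted p = 1.0, edgeR). Its TPM ranges overlapped through WT1, and it held 0.00881 of the TPM of Syn2 in WT. Relative use of the transcripts of a gene could be tested for 9 members, and 0 were called by diffSpliceDGE, against 0.17% of 13560 genes. The smallest p of the 9 was 0.529, in Syn2. The p of Syn2 depended on the method and on the mice used. By limma diffSplice it was 0.0115, where 549 of 13560 genes had one below 0.05. The gene-level F test gave 0.035 (291 genes) and a term for the mice numbered 1 gave 0.0481 (490 genes). With the replicate block it was 0.0997, and without WT1 it was 0.0811. It was 0.24 where each transcript needed 10 counts per mouse, 0.455 without KO3 and 0.714 to 0.994 without KO1, KO2, WT2 or WT3. Adjusted p ran from 0.83 to 1.0 over these fits. Without both mice numbered 1 the p of Syn2 was 0.0716 (adjusted p = 0.803, diffSpliceDGE).

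Syn1 had 2 transcripts, both coding, whose protein lengths of 706 and 670 residues are those of synapsin Ia and synapsin Ib. Since 38 is not a multiple of 3, the forms read their last exon in different frames. The share of the longer form, Syn1-201, which holds the 38 bases in capitals in the Syn1 sequence, was 0.523, 0.593 and 0.625 in WT and 0.619, 0.617 and 0.621 in KO mice. WT1 was lowest and the KO values lay inside the WT range (difference 0.0388, adjusted p = 1.0, limma).

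The most abundant transcript of Syn2 was Syn2-206, annotated as non-coding and starting at the internal site, with a share of 0.567, 0.437 and 0.514 in WT and 0.615, 0.496 and 0.524 in KO mice. Coding transcripts therefore made up 48.6% ± 6.31 of Syn2 TPM in WT and 44.5% ± 6.16 in KO (n = 3, exact two-sided permutation p = 0.5), whereas the median protein-coding gene with more than 1 transcript had 86.0%. These are estimates of how reads divide between transcripts of 1 gene. Reads at the internal start or across junctions were not used to check them. Among the coding forms, the 586-codon transcript Syn2-201, the size of synapsin IIa, had a fraction of 0.399 ± 0.032 in WT and 0.381 ± 0.0185 in KO. The rest, Syn2-203 and the minor Syn2-202, had the 479 codons of synapsin IIb. Syn3-201, which codes for 579 residues, had a share of 0.884, 0.841 and 0.838 in WT and 0.773, 0.818 and 0.815 in KO mice. Its groups did not overlap, but the limma test gave an unadjusted p of 0.0769 and an adjusted p of 1.0. The non-coding Syn3-205 ran opposite to it, from 0 in WT1, the library with the most transcripts at 0, to 0.144 in KO1, and was near 0.09 in the other 4 mice.

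Syp and Sv2a came almost wholly from 1 coding transcript each: Syp-201 had a mean share of 0.958 in WT and 0.961 in KO mice, and Sv2a-201 one of 0.936 and 0.943. Sv2b used a pair of transcripts with different first exons and the same 683 codons. Sv2b-202, which starts farther upstream, had a share of 0.517, 0.438 and 0.435 in WT and 0.483, 0.439 and 0.433 in KO mice, so the mouse numbered 1 was highest in each genotype and the genotypes overlapped.

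**Figure D4:**
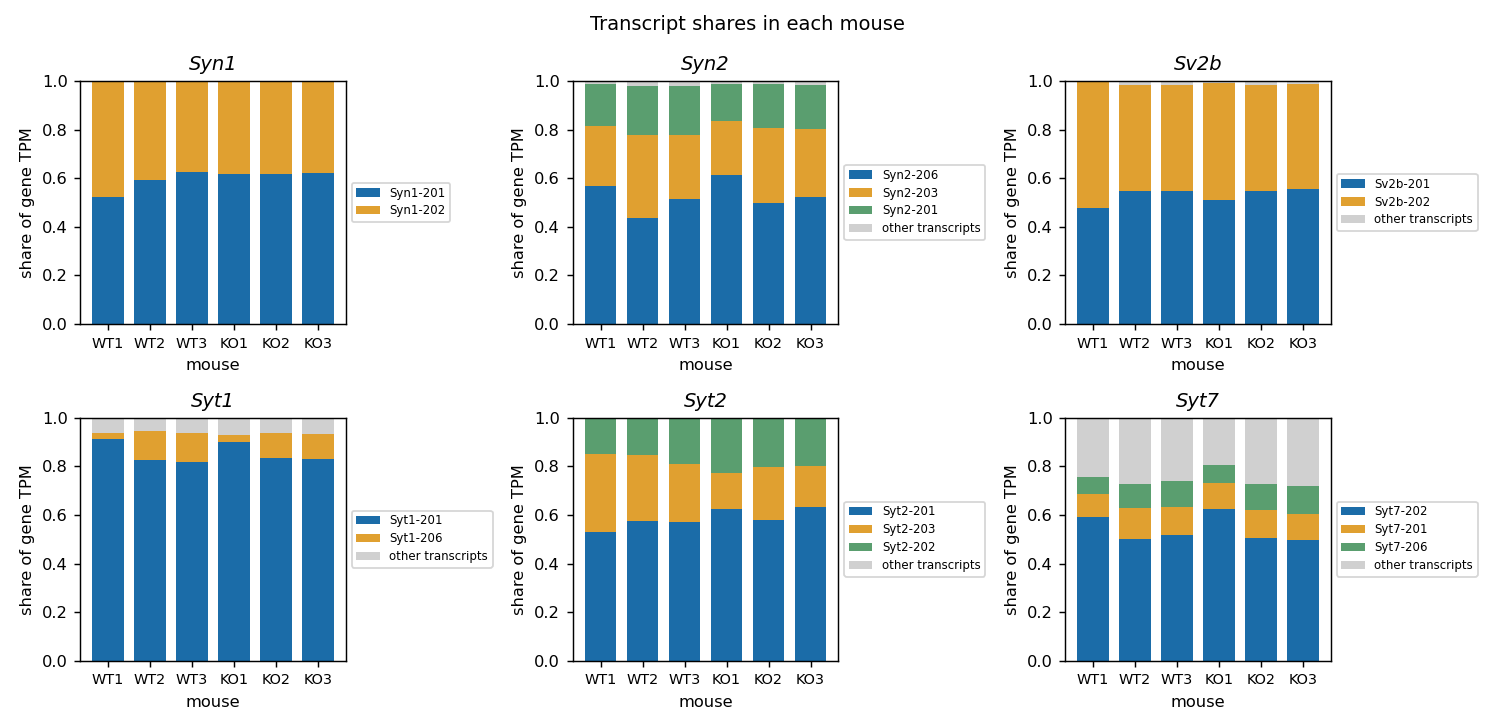
Share of each gene's TPM taken by its transcripts in each mouse, for Syn1, Syn2, Sv2b, Syt1, Syt2 and Syt7. Bars are single mice, colours are transcripts and grey is the sum of the remaining transcripts. WT and KO bars look alike, except for a smaller Syt2-203 part in KO, and Syt1-206 is smallest in the mice numbered 1.

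Syt1 came mostly from Syt1-201, with a mean share of 0.851 in WT and 0.855 in KO mice. The transcript Syt1-206, which lacks the 9 bases in capitals in the Syt1 sequence and is annotated as non-coding, is named after its values were seen. It was at 7.89, 65.9 and 66.8 TPM in WT and 11.6, 55.2 and 53.6 TPM in KO mice, with shares of 0.0264 and 0.0278 in the mice numbered 1 and 0.101 to 0.12 in the other 4. The genotypes did not differ beyond this spread (unadjusted p = 0.875, limma). Inclusion of the 80-base cassette exon at chr10:108993838-108993917 of Syt1, used by Syt1-202, was 0.06 ± 0.0029 in WT and 0.0663 ± 0.00186 in KO mice; the groups did not overlap, and the limma test gave an unadjusted p of 0.495.

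Syt2 gave the single share with an unadjusted p below 0.05. Syt2-203, a short coding fragment of 383 bases that starts 65 bases after the upstream RefSeq start, had a share of 0.322, 0.273 and 0.237 in WT and 0.147, 0.215 and 0.171 in KO mice. All KO values lay below all WT values, a difference of -0.0996 (unadjusted p = 0.0157, adjusted p = 1.0, limma). The lowest library held only 29.1 estimated counts of it, and as a fraction of estimated counts the difference was -0.0059. Syt2-201, which codes for the 422 residues of the full protein from the downstream site, had shares of 0.529, 0.573 and 0.572 in WT and 0.626, 0.581 and 0.632 in KO mice. Syt2-202, annotated as non-coding, had shares of 0.15, 0.152 and 0.186 in WT and 0.223, 0.198 and 0.194 in KO mice (unadjusted p = 0.0706, limma). 

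Across the members, 24 transcripts of 8 genes had shares that could be tested, and 0 were called (0% of 40726). One had an unadjusted p below 0.05, against 2.77% of all shares. Shares did not overlap between the genotypes for 6 of the 24, against 9.83% of all, and all 6 belonged to Syn3 or Syt2, whose shares sum to 1 within each gene.

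The linker exons of Syt7 carried most of the events. Syt7-202, the most abundant form, with 611 codons, includes exons A, D and E and had a mean share of 0.537 in WT and 0.541 in KO mice. Syt7-201, with 403 codons, skips all of exons A to E and was at 0.112 and 0.109. Syt7-206, annotated as a retained intron, had a mean share of 0.0914 in WT and 0.101 in KO mice. Over the 12 transcripts that span the region, exon A was included in 0.77 ± 0.0254 of TPM in WT and 0.773 ± 0.0244 in KO, exon B with its stop codon in 0.128 ± 0.0176 and 0.129 ± 0.0309, and exon C in 0.18 ± 0.0102 and 0.156 ± 0.0356 (n = 3). The genotypes overlapped for all 3 exons. All 5 exons have lengths divisible by 3.

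Within single pairs of neighbours, 3 of the 14 events tested had an unadjusted p below 0.05, against 3.2% of all 24070 events, and 0 were called (0% of all). All 3 were in Syt7, which supplied 11 of the 14 events and whose events share transcripts. From reads per junction, with unannotated splice sites included, the study did report altered events at the same limits. Those reads were not used here, so 0 calls do not show that splicing was unchanged. Exon A next to exon C was included at 0.359, 0.275 and 0.262 in WT and 0.16, 0.197 and 0.191 in KO mice, with all KO values lower (difference -0.116, unadjusted p = 0.00772, adjusted p = 1.0, limma). Exon B between A and C was at 0.645, 0.665 and 0.655 in WT and 0.771, 0.705 and 0.742 in KO mice, with all KO values higher (difference 0.0845, unadjusted p = 0.0235). Exon D between C and E was at 1.0, 0.96 and 0.997 in WT and 0.951, 0.952 and 0.939 in KO mice (unadjusted p = 0.036). These events rest on the minor transcripts Syt7-203, Syt7-207, Syt7-209, Syt7-210, Syt7-213 and Syt7-214: the first compares transcripts that together had 7.23 to 21.8 TPM, where the gene had 94.3 to 215 TPM, and several were nearly absent from single libraries. The lowest estimated count was 27.2 for Syt7-203 and 0 for Syt7-213 and Syt7-214, and Syt7-207 was at 3.45, 2.05e-06 and 0.517 TPM in the WT mice. The count of 3 events fell to 1 without KO1, without KO3 or without WT3, and to 1 on estimated counts. Without both mice numbered 1 the differences were -0.0748, 0.0636 and -0.0328. Next to the constitutive exon at chr19:10435550, exon A was at 0.0858 ± 0.0335 in WT and 0.076 ± 0.0046 in KO mice, with no such difference (unadjusted p = 0.728). Groups did not overlap for 4 of the 14 events, these 3 and the Syt1 cassette exon, beside 10.7% of all events.

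**Figure D5:**
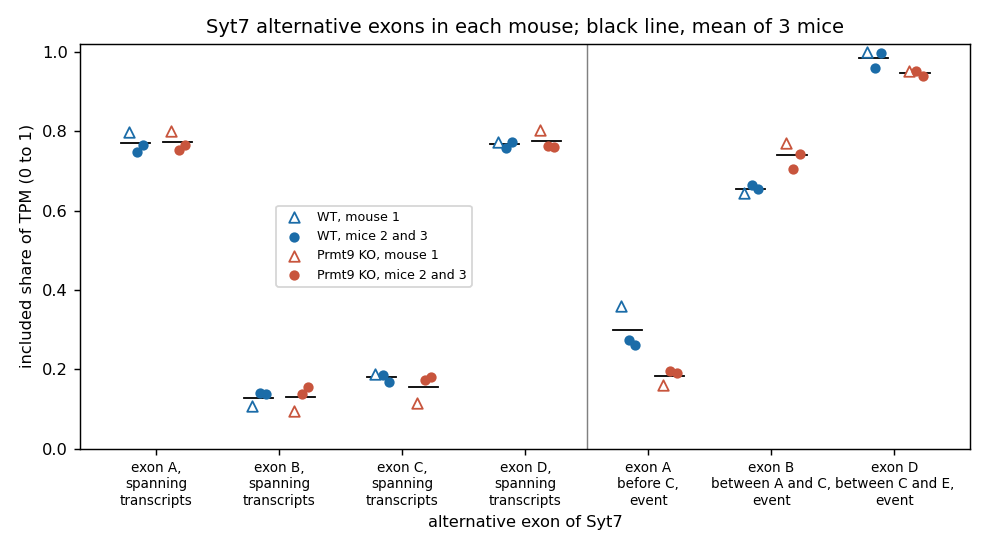
Inclusion of the alternative linker exons of Syt7 in each mouse, as a share of TPM from 0 to 1. On the left, exons A to D over all 12 transcripts that span the linker; on the right, the 3 events with an unadjusted p below 0.05, each between fixed neighbouring exons. Open triangles are the mice numbered 1 and black lines the means of 3 mice; WT and KO overlap on the left and not on the right.

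Other genes of the synaptic vesicle gave the same result at the gene level: in each of 4 lists edgeR called 0 genes higher and 0 lower in KO mice, and 0 had an unadjusted p below 0.05. Among 18 other synaptotagmins and synaptotagmin-like genes, 17 were tested, with 7 above and 10 below 0 and a median log2 fold change of -0.04. Syt11 was the most abundant at 246, 405 and 389 TPM in WT and 296, 371 and 355 TPM in KO mice, followed by Syt5 at 218 ± 22.4 and 215 ± 30.8 TPM. The largest log2 fold changes were those of Syt10, at 3.64 ± 1.97 and 4.41 ± 2.01 TPM (0.25, SE 0.479), and Syt12, at 19.6 ± 2.26 and 19.1 ± 3.91 TPM (-0.19, SE 0.127).

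Of 12 other vesicle membrane proteins, 1 was above and 11 were below 0, with a median of -0.07. Vamp2, the vesicle SNARE of fast release, was at 717 ± 48.7 TPM in WT and 718 ± 8.89 in KO, and Scamp5, a secretory carrier membrane protein, at 324 ± 53.6 and 327 ± 10.1. Synpr, which encodes the synaptophysin relative synaptoporin, had a log2 fold change of -0.22 (SE 0.116), and Syngr4, a member of the synaptogyrin family that was below 1 TPM in each mouse, had one of -0.45 (SE 0.305). In the 17 genes for transporters and the proton pump the median was -0.06, with 4 above and 13 below 0. Atp6v0c, a membrane subunit of the vesicular proton pump, was at 1629 ± 93.9 and 1687 ± 263 TPM, and Slc17a7, the vesicular glutamate transporter VGLUT1, at 873 ± 120 and 851 ± 84.1 TPM. Slc17a8, which encodes VGLUT3, had a log2 fold change of -0.23 (SE 0.174) at 2.35 ± 0.746 and 2.03 ± 0.206 TPM, and Slc18a3, the vesicular acetylcholine transporter, had one of -0.53 (SE 0.363) at about 0.1 TPM.

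The 14 cytosolic proteins that associate with vesicles had 10 genes above and 4 below 0 and a median of 0.04. Rab3a, the main Rab GTPase of synaptic vesicles, was at 575, 629 and 618 TPM in WT and 642, 656 and 640.0 TPM in KO mice. Its TPM ranges did not overlap, but its log2 fold change from normalized counts was 0.02 (SE 0.114, unadjusted p = 0.88). Cplx3, a complexin, had a log2 fold change of 0.27 (SE 0.228) and Rph3a, the Rab3 effector rabphilin, one of -0.21 (SE 0.168). Beside these lists, the summed TPM of marker genes overlapped between the genotypes for inhibitory interneurons (861 to 1007 in WT, 984 to 1007 in KO), astrocytes (693 to 888 and 803 to 931), microglia (208 to 245 and 172 to 233), endothelial cells (81.1 to 136 and 73.3 to 120), choroid plexus (609 to 7267 and 867 to 3339) and thalamus (45.7 to 55.2 and 50.6 to 61.3).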

How the data were processed

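Hippocampal RNA of 6 mice, 3 per genotype, was sequenced and quantified by the authors with kallisto, which gives an estimated count and a TPM for each annotated transcript (kallisto 0.46.0 in the submitters' processing notes; the methods of the study name another version). The deposited gene table holds TPM summed per gene by the authors with tximport. STAR 2.7.1a, also in those notes, served the authors' junction-based splicing analysis, and reads per junction were not used here. Genome build GRCm38 was used by the authors, and 116622 of 118783 transcripts matched GENCODE M21.

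The 10 genes and all lists were chosen with earlier results of these data known. Estimated counts were summed per gene, rounded and fitted with edgeR 4.0.16 (quasi-likelihood, TMM, filterByExpr), with calls where the change exceeded 1.5-fold and the adjusted p was under 0.01. For transcript usage, diffSpliceDGE with the Simes method was run on the same counts. Shares and inclusion of 50652 annotated splicing events were TPM ratios tested with limma 3.58.1 after adding 0.1 TPM, where each mouse had 1 TPM or more and the mean ratio lay from 0.05 to 0.95 in either genotype; calls needed a difference of 0.05 or more with an adjusted p no higher than 0.01. Benjamini-Hochberg adjustment ran over all features. DESeq2 1.42.0 was an alternative, and other alternatives changed the normalization, filter, pseudocount, unit and samples. The scripts were tested on simulated data. Libraries held 194098391 to 286771677 estimated counts, and the lowest member, Syn3, had at least 2857 in every mouse. R 4.3.3, Python 3.11.15 and SciPy 1.17.1 were used.

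Mice with the same number deviated together from their genotype means (r = 0.553, 0.415 and 0.383 across genes, all above 0.1). The replicate number was used as a block in an alternative fit only, and the main tests had no such term. Mice 2 and 3 correlated as well when crossed (0.417 and 0.394), so these values cannot show that mice of the same number were pairs. Genes and transcripts named were all 10 members, Prmt9, transcripts with a mean share of at least 0.1 or an unadjusted p below 0.05, events with an unadjusted p below 0.05, the 2 most abundant and the 2 most changed genes of each vesicle list, and the most similar gene to each member. A gene that this rule picks is not reported here.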

Additional observations from a re-analysis of the deposited data

How the results depend on the processing

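No member gene, transcript, usage test, share or event was called under any alternative run, including DESeq2, other normalizations, no filter on low counts, other pseudocounts and each mouse left out. The fit with the replicate number as a block gave 0 called members in each of the 5 tests and changed no call of a member. Over all genes the usage test is the unstable one: its 23 calls became 13 with the block, 52 with a term for the mice numbered 1, 16 by the gene-level F test, 4 by limma diffSplice, 1 where each transcript needed 10 counts per mouse, 9 to 143 without 1 mouse (143 without WT1) and 249 without both mice numbered 1, a set chosen after seeing the data. DESeq2 called 2 genes and 112 transcripts where edgeR called 0 of each.

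The count of members whose TPM did not overlap rose from 0 to 7 without both mice numbered 1, and ran from 0 to 6 when 1 mouse was left out, with 6 without WT1 and 1 without KO1. Of 122 values under alternatives with all mice or without both mice numbered 1, 111 kept their direction and 11 did not. Those were Syn2 (0.0073), Syn3 (0.024), Syp (0.032) and Sv2a (0.056) on log2(TPM + 0.1), the same genes on log2(TPM + 1) (0.0072, 0.019, 0.032 and 0.056), Sv2a with upper-quartile scaling (0.0072), and Syt1 (-0.044) and Sv2b (-0.023) without both mice numbered 1; the cause was not tested. With 1 mouse left out the log2 fold change ran from -0.052 to 0.028 in Sv2a, -0.074 to 0.11 in Syt1, -0.31 to 0.12 in Syt2, -0.41 to 0.15 in Syt4 and -0.13 to 0.21 in Syt7, so these directions are not fixed. The exon D event of Syt7 could not be tested at 5 TPM or without KO3. Low estimated counts limit Syt2-203 and the minor Syt7 transcripts.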
